A study of Mus musculus with 60 samples.

Results

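The heart circRNAs of a comparison of Ftsj1-deficient and wild-type mice are described here: all 664 circRNAs that the authors' deposited heart table lists, of 2799 different circRNAs in the tables of 5 organs. The table compares hearts of 3 mice labelled Ftsj1_DF with hearts of 3 mice labelled WT. All were males aged 4 months, whole hearts were used, and no treatment was given. Per the labels, 4 of the mice are brothers and so are the other 2, and each of these brother groups holds both genotypes. Each heart library was sequenced in 2 runs because the first gave few reads. How the Ftsj1 allele was disrupted is not stated in the sources used here.

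Circular RNAs (circRNAs) form when the end of an exon is spliced back to the start of the same or an earlier exon, which closes the RNA into a ring without free ends. The ring resists exonucleases, so digestion with RNase R enriches it over linear RNA, and a read across the back-splice junction marks it. Long-lived cells such as cardiomyocytes and neurons are known for stable circRNAs, and genes of the contractile and calcium apparatus are known hosts in the heart. Ftsj1 is an X-linked methyltransferase that places 2'-O-methyl groups on the anticodon loop of certain tRNAs and is linked to intellectual disability.

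The deposited heart table holds, for each circRNA, a mean normalized count over the heart libraries of both genotypes, a log2 fold change between the genotypes and its standard error (SE). Values per mouse and the total reads per library were not analysed here, so no SD between mice is given and the depth is unknown. Which genotype is the numerator is not stated, and signs are therefore given as deposited. No heart circRNA was named to Ftsj1, so these values do not check the genotype labels. Because whole tissue was used, a difference in the number of cells of a type and a difference in RNA per cell cannot be told apart.

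The tables hold positions on GRCm39 and no gene names. Host genes were named by distances, without carrying a position from one build to another. The genes were those of the same chromosome in GENCODE M21, an annotation of GRCm38. The distance between the ends of a circRNA had to be a distance between exon boundaries of a gene. The same had to hold, in that gene, for the distance to at least 1 further circRNA end nearby. Where several genes met this, the gene that matched the most further ends was taken, and ties were left unnamed. This named 323 of 664 heart circRNAs (48.6%), in 206 genes. Genes with several circRNAs are favoured by this rule, and counts per gene below cover the named circRNAs only. The named circRNAs held 55.3% of the summed mean normalized count, and their median of 2.75 stood beside 2.83 for the others. Their genomic spans were longer, with a median of 8257 bases against 3492 for the others.

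The back-splice junctions of the circRNAs that the abundance and genotype results turn on are shown first. In each, capitals mark the last 25 bases of the last exon and lower case the first 25 bases of the first exon of the circle, 5′ to 3′ on the strand of the gene, from the GENCODE M21 transcripts of the matched exons. All of the exons shown lie within coding sequence in the transcript used. The first 4 belong to abundant circRNAs that another organ table lists too:
Ogdh, exons 3 to 4, chr11:6263788-6267080, plus strand: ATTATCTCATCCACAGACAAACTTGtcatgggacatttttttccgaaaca
Ryr2, exons 59 to 62, chr13:11695852-11702899, minus strand: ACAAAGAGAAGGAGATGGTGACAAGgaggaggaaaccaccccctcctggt
Tlk1, exons 2 to 3, chr2:70600348-70617339, minus strand: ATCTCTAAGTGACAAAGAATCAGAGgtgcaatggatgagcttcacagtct
Gigyf2, exons 4 to 8, chr1:87291826-87307730, plus strand: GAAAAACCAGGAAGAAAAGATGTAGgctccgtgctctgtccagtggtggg

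The Myocd and Mlip circRNAs show how circles of a gene reuse the sides of a junction. The 3 Myocd circRNAs, listed in heart only, use the same last exon or the same first exon as the leader:
Myocd, exons 2 to 5, chr11:65109355-65124010, minus strand: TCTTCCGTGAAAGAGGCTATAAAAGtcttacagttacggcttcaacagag
Myocd, exons 3 to 5, chr11:65109355-65114615, minus strand: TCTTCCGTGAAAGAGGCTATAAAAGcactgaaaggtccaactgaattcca
Myocd, exons 2 to 4, chr11:65112858-65124010, minus strand: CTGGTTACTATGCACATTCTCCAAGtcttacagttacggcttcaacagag
Mlip, exons 5 to 10, chr9:77081241-77124330, minus strand: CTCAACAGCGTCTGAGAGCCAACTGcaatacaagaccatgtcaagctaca
Mlip, exons 5 to 9, chr9:77088634-77124330, minus strand: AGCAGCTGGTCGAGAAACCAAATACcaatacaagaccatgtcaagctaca

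The Wwc2 pair, which ends at the same exon and starts at different ones, includes the named circRNA with the smallest genotype p:
Wwc2, exons 2 to 4, chr8:48352471-48373733, minus strand: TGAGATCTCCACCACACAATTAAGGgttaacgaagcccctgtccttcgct
Wwc2, exons 3 to 4, chr8:48352471-48353891, minus strand: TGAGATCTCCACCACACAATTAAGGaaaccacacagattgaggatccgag

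Heart circRNAs were led by a circle of Ogdh, which encodes the 2-oxoglutarate dehydrogenase subunit of the mitochondrial citric acid cycle. The authors' deposited table gave it a mean normalized count of 164.3, and the next circRNA had 82.7. The named circRNAs that followed came from Ryr2 (73.7), the calcium release channel of the sarcoplasmic reticulum, and Myocd (62.2), a coactivator of serum response factor in cardiac and smooth muscle. Med13l (58.3), a subunit of the Mediator kinase module, Tlk1 (55.8), a kinase of chromatin assembly, and Gigyf2 (51.8), a translational repressor, completed the named circRNAs among the first 10. The ranks of these levels carry no test, because no spread between mice is given. Values are not divided by length, and how the counts were made is not stated in the sources used here.

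The 2 most abundant circRNAs without a named host were chr10:120661013-120687997 at 82.7 and chr7:58890715-58896965 at 80.9. Both were among the first 3 of the heart table. The first is listed in brain, kidney and liver too, and the second in all of the other 4 organ tables.

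Abundance fell off quickly. The median mean normalized count was 2.78, the lowest 0.623, and 88 circRNAs (13.3%) reached a mean of 10. The Ogdh circle alone held 4% of the summed counts, the first 10 circRNAs held 18.1%, and 73 circRNAs together reached 50% of the sum. Of the 50 most abundant circRNAs, 32 had a named host and 3 were listed in heart only.

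**Figure D1:**
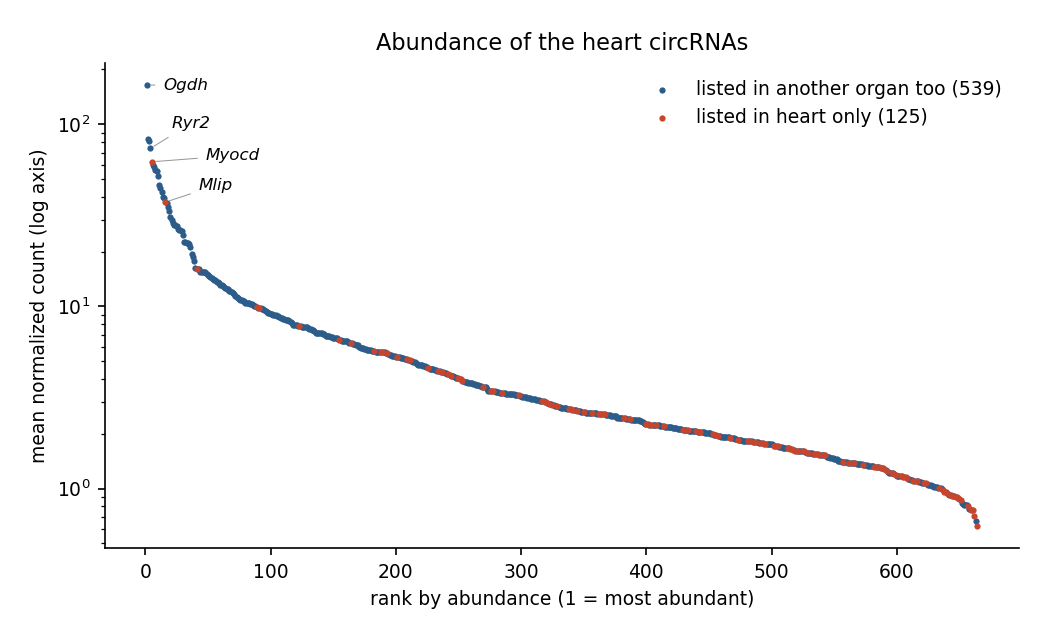
Mean normalized count (log axis) of the 664 heart circRNAs against their rank, 1 point per circRNA, red for those listed in the heart table only and blue for those listed in another organ table too. Ogdh stands first at 164.3, and the Myocd and Mlip leaders at 62.2 and 37.4 are red points among the most abundant circRNAs.

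The leaders of heart were not ordered alike in the other organ tables, which were normalized separately, so only ranks within each table are given. The Ogdh circle, first of 664 in heart, ranked 128 of 1856 in brain, 8 of 996 in kidney, 29 of 900 in liver and 49 of 308 in spleen. The Ryr2 leader ranked 4 in heart and 134 in brain and was not listed in kidney, liver or spleen. Gigyf2 ranked 10 in heart, 1 in brain, 2 in kidney, 6 in liver and 2 in spleen. Med13l ranked 7 in heart, 2 in brain, 6 in kidney, 5 in liver and 3 in spleen, and Tlk1 ranked 8 in heart, 6 in brain, 5 in kidney, 3 in liver and 4 in spleen. Ogdh and Ryr2 thus stood nearer the top in heart than in any other table that listed them, while Gigyf2, Med13l and Tlk1 were near the top in each table. Across shared circRNAs, Spearman's rank correlation between the heart mean and the mean in the other table was 0.55 with brain (n = 416), 0.52 with kidney (n = 392), 0.43 with liver (n = 345) and 0.60 with spleen (n = 207). These are descriptions across circRNAs of the same 6 mice.

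Sharing with other organs was most frequent for abundant circRNAs. Of the 664 heart circRNAs, 125 (18.8%) were listed in heart only, 141 in 1 other table, 108 in 2, 157 in 3 and 133 in all 4. The median heart mean in these groups was 1.82, 2.03, 2.68, 3.30 and 8.25, in that order. Those listed in all 4 other tables held 44.1% of the summed heart counts, and those in heart only 9.96%. Each table was filtered by itself for low expression, so a circRNA that is not listed in an organ is not shown to be absent there.

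**Figure D2:**
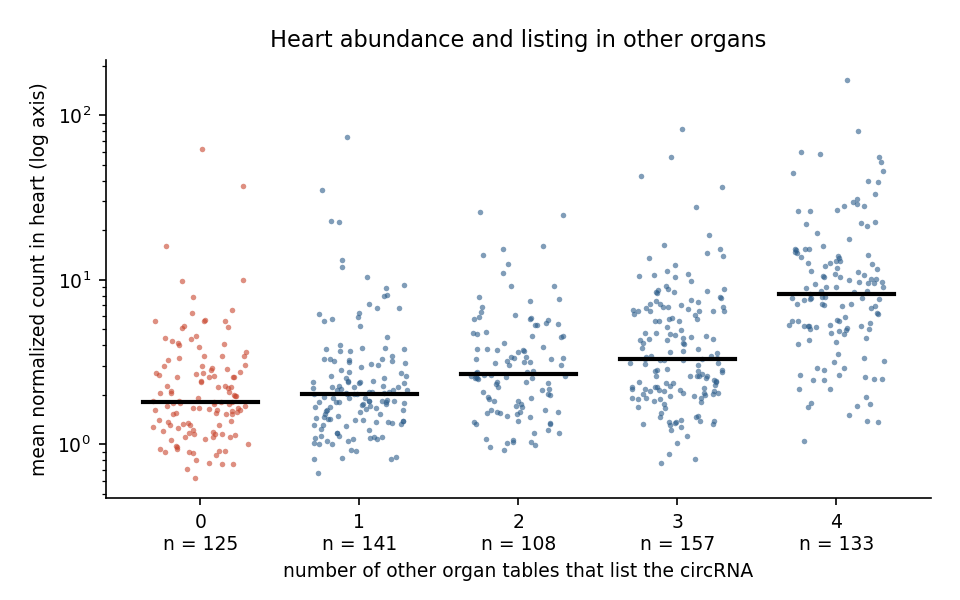
Heart mean normalized count (log axis) by the number of other organ tables that list the circRNA, 1 point per circRNA, with the median as a bar and red for heart only. Medians run from 1.82 in heart only to 8.25 for circRNAs in all 4 other tables, and the groups overlap widely.

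Brain shared the most circRNAs with heart, 416, which is 62.7% of the heart table and 22.4% of the brain table. Kidney shared 392 (59% of heart, 39.4% of kidney), liver 345 (52% and 38.3%) and spleen 207 (31.2% and 67.2%). Among the 141 circRNAs listed in 1 other table, that table was brain for 69, kidney for 41, liver for 22 and spleen for 9.

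Heart-only circRNAs included a few abundant ones of muscle genes. The Myocd leader (62.2) and the leader of Mlip (37.4), a muscle-enriched protein that binds A-type lamins, stood far above the heart-only median of 1.82. The other named ones among the 10 most abundant heart-only circRNAs were a second Ryr2 circle, chr13:11784738-11800027, at 9.79 and the Myocd circle of exons 3 to 5 at 6.57. The 2 most abundant without a named host were chr6:118979538-118982042 at 16.1 and chr14:55187302-55187635 at 9.93. Only 3 heart-only circRNAs reached a mean of 10, and 69 lay under a mean of 2.

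A heart-only circle need not come from a heart-only locus. Of the 125, 31 (24.8%) shared a start or an end with a circRNA of another organ, and 38 overlapped one, 28 of them a brain circRNA. The Mlip leader and the second Ryr2 circle each shared an end with a brain circRNA. The remaining 87 (69.6%) overlapped no circRNA of another table, the Myocd leader among them. Some of the 206 host genes had named circRNAs in the heart table alone, none of which overlapped a circRNA of another organ. These genes, picked out by this listing and not by the naming rule, included Myocd with 3 circRNAs, Dysf, which acts in muscle membrane repair, with 2, Lrrfip2 with 2, Zfpm1, a cofactor of GATA factors, with 2, and Phldb2 with 1.

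Genomic span, which counts every base between the ends with introns included, ran from 140 to 161067 bases with a median of 4964.5. Spans under 1000 bases made up 17.2%, and 2.41% spanned 50 kb or more. The longest was a circle of Atxn1, the ataxin 1 transcriptional repressor, at chr13:45948985-46110051, with a mean of 26.3. A circle of Cpq, a secreted peptidase, spanned 131522 bases at a mean of 1.52, and chr1:157114301-157219240 spanned 104940 bases at 2.65. The shortest was a circle of Arhgap21, a GTPase-activating protein, with 140 bases and a mean of 1.75. Next came chrMT:13774-13916 on the mitochondrial genome, with 143 bases and a mean of 2.54, the only entry of that chromosome, and chr13:108790639-108790799 with 161 bases and a mean of 2.16. Span and abundance went little together, with a Spearman's rank correlation of 0.01 across the 664 circRNAs, given as a description. Heart-only circRNAs had a median span of 6115 bases. For those listed in 1, 2, 3 and all 4 other tables it was 6471, 4802.5, 4398 and 3470, in that order.

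The named circles themselves were short. Since named circRNAs had longer spans than the others, the exon numbers and exonic shares here describe the named ones only. By the matched exons, the 323 named circRNAs held a median of 3 exons and 321 bases of exon, and exons made up a median of 4.5% of the span. Circles of 2 to 5 exons numbered 288 (89.2%), 6 held 1 exon, and the most was 11 exons, reached in Nsmaf among others. The exonic lengths assume that every annotated exon between the ends is kept, which junctions do not show. Matching transcripts agreed on the exons for 266 of the 323. The first exon of the circle was exon 2 of the transcript used in 85 (26.3%), among them Myocd, Tlk1, Med13l and Atxn1. In this set 0 of the 323 circles held the first or the last exon of the transcript. The Med13l circle is a single exon of 238 bases, exon 2, and the long Atxn1 circle joins 3 exons with 379 bases across its 161067 bases of genome.

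Overlapping heart circRNAs formed 564 loci, of which 71 held 2 or more circRNAs and 4 held 4 or more. Those with 4 or more include the loci of Arhgap10, a GTPase-activating protein, with 8 circRNAs, of Mlip with 7 and of Uimc1, a ubiquitin-binding protein of DNA repair, with 4. By host gene, Arhgap10 had 9 named circRNAs, Mlip 7, Ryr2 6, and Asph, Arhgap32, Uimc1 and Stk39 had 4 each. In all, 127 host genes had 1 named circRNA and 59 had 2.

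Genes differed in how far a single circle dominated. In Ryr2 the leader at 73.7 held 79.2% of the summed count of the gene's 6 circRNAs, and the other 5 lay between 2.05 and 9.79. In Mlip the leader held 49.5% of 75.5, followed by chr9:77072047-77098019 at 22.3, and the lowest of the 7 was 0.911. All 7 Mlip circles were made from 3 starts and 3 ends. In Arhgap10 the leader, chr8:78071269-78078301, held 34.1% of 81.1 at 27.7, with chr8:78111380-78137757 close to it at 22.7.

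Arhgap26, a GTPase-activating protein of chromosome 18, had 3 circles of 42.5, 28.1 and 14.6, so that its leader held 49.9% of the locus. Asph, an aspartate beta-hydroxylase, had 4 circles of 33.4, 6.43, 1.84 and 1.16, of which the leader held 78%. The Myocd leader held 85.9% of the 72.4 summed over its 3 circles. Levels of circles within a gene are set side by side without a test, since the table gives no error of a mean.

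The same genes differed in how their circles were listed elsewhere. Of the Mlip circRNAs 5 of 7 were listed in heart only and the other 2 in brain as well. Of the 6 Ryr2 circRNAs 4 were listed in heart only, and named Ryr2 circRNAs were otherwise found in the brain table alone. Of the 9 Arhgap10 circRNAs 1 was listed in heart only, and the gene had 8 named circRNAs in brain, 10 in kidney, 3 in liver and 2 in spleen.

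**Figure D3:**
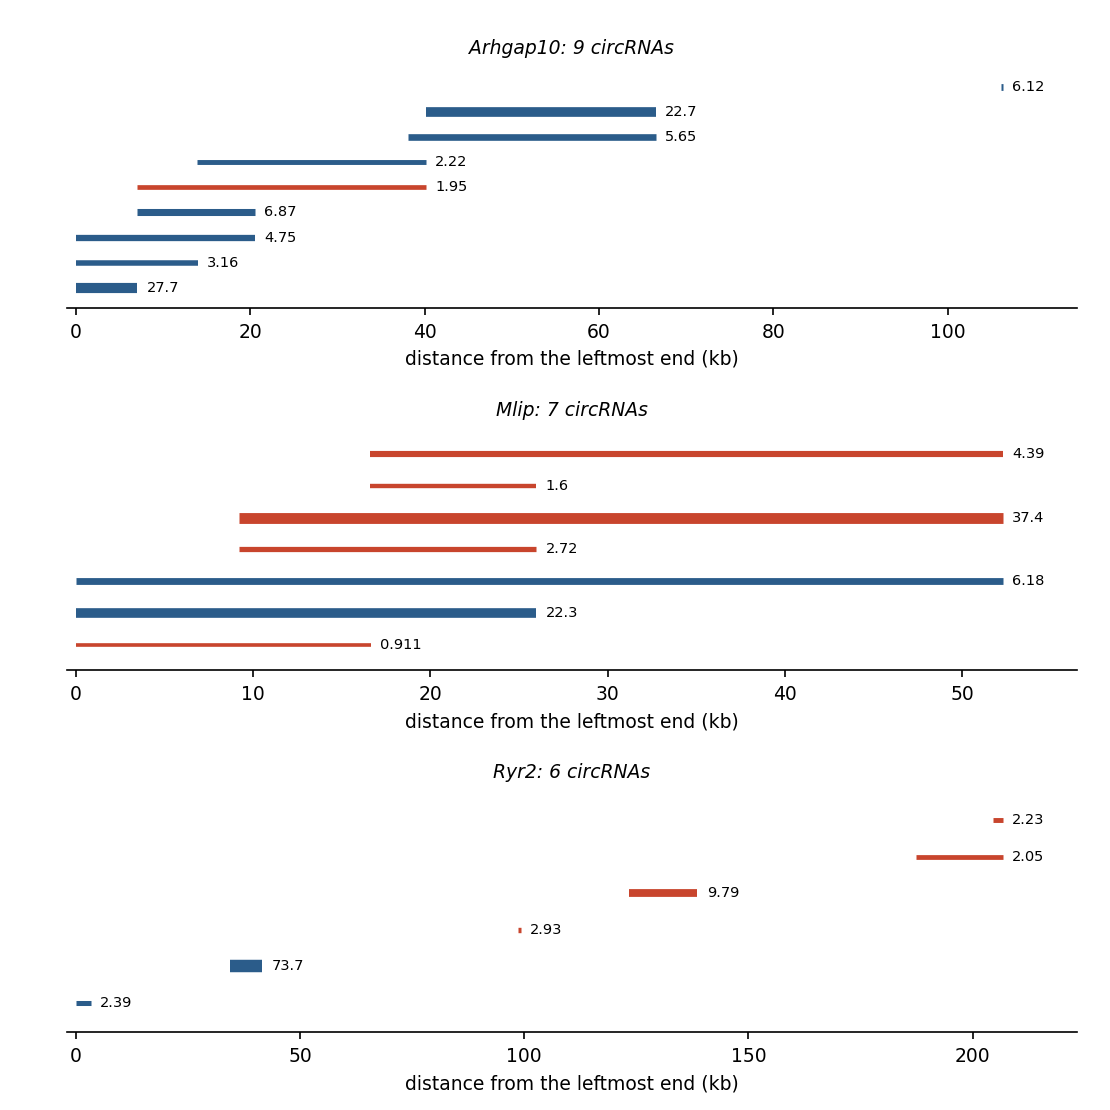
Positions of the named circRNAs of Arhgap10, Mlip and Ryr2 as distance in kb from the leftmost end in the gene, 1 bar per circRNA from end to end, thicker for a higher mean normalized count, which is printed beside it. Red bars are listed in heart only; Mlip has 5 of 7 and Ryr2 4 of 6 in red, and Arhgap10 has 1 of 9.

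No circRNA passed the genotype test in heart. By the DESeq2 Wald test in the authors' deposited table, an adjusted p below 0.05 was reached by 0 of 664 circRNAs (0%), and the smallest adjusted p was 0.638. At an unadjusted p below 0.05 there were 19 (2.86%), 12 of them positive (1.81%) and 7 negative (1.05%), where 5% of the tests would be 33.2. The median log2 fold change over all 664 was 0.12, with 372 positive and 292 negative. Among the 88 circRNAs with a mean of 10 or more, the median was 0.09, the lowest value -1.08 and the highest 1.25. Taken with a t distribution of 4 degrees of freedom, or with SEs widened by the square root of 2 for repeat runs, 3 circRNAs had an unadjusted p below 0.05.

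On the positive side the named circRNA with the smallest p was the Wwc2 circle of exons 2 to 4, from a gene of the Hippo pathway. The authors' deposited table gave it 2.16 ± 0.74 (log2 fold change ± SE) with a mean of 9.34 and an adjusted p of 0.794. The second Wwc2 circle, which shares its last exon, had a mean of 18.6 and a log2 fold change of 0.69 ± 0.50, so the intervals of the pair, 0.71 to 3.61 and -0.29 to 1.67, overlapped. Ezh2, the histone H3 lysine methyltransferase of Polycomb, had 1.25 ± 0.58 at a mean of 15.4. Ets1, a transcription factor, had 3.99 ± 1.92 at a mean of 1.32, and the Mlip circle of exons 5 to 9 had 2.37 ± 1.16 at a mean of 4.39. Zmynd11, a chromatin reader named here after its values were seen, had 2.05 ± 1.01 at a mean of 4.77. The adjusted p of Ezh2, Ets1, Zmynd11 and this Mlip circle was 0.996 each. The Mlip leader, which shares its first exon with that circle, had 0.23 ± 0.34. Without a named host, the 2 smallest p belonged to chr17:53917892-53939746, with 2.98 ± 0.91 at a mean of 7.81 and an adjusted p of 0.638, and to chr2:25855675-25856960, with 2.40 ± 0.93 at a mean of 6.70. The first of these 2 was listed in heart only.

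On the negative side stood Ubr3, a ubiquitin ligase, at -4.46 ± 1.87 and a mean of 2.37. Gigyf2 was the only circRNA among the 10 most abundant with an unadjusted p below 0.05, at -0.95 ± 0.40 and a 95% interval (from the SE, by the normal distribution) of -1.73 to -0.17. Its adjusted p was 0.996. Acer3, an alkaline ceramidase, had -3.30 ± 1.58 at a mean of 3.73, while another Acer3 circle with the same last exon had 0.70 ± 0.83 at 6.42. Med13l, with -0.58 ± 0.31, and Hmgxb3, an HMG-box protein, with -2.80 ± 1.58, had intervals that include 0. Without a named host, chr2:5057799-5059527 had -5.05 ± 1.63 at a mean of 3.77 and an adjusted p of 0.638, and chr14:78889121-78891236 had -4.82 ± 1.74 at 3.16.

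Of the named circles above with an unadjusted p below 0.05 in heart, Gigyf2, Ezh2, Wwc2, Acer3 and Ubr3 are given with the deposited values of the other organs that list them, from the same mice; Zmynd11, which the naming rule did not choose, is left out. Gigyf2 had -0.95 ± 0.40 (log2 fold change ± SE) in heart, -0.10 ± 1.09 in brain, 0.15 ± 0.73 in kidney, -0.59 ± 0.62 in liver and -2.72 ± 1.38 in spleen. The deposited spleen table gives this circle no p. A second, rare Gigyf2 circle, chr1:87291826-87301833, had -1.09 ± 1.84 in heart. Ezh2 had 1.25 ± 0.58 in heart, 2.13 ± 1.83 in brain, 0.26 ± 1.27 in kidney, 0.06 ± 1.97 in liver and 1.21 ± 1.52 in spleen. The Wwc2 circle of exons 2 to 4 had 2.16 ± 0.74 in heart and 0.28 ± 0.90 in kidney, the only other table that lists it. The Acer3 circle of exons 2 to 7 had -3.30 ± 1.58 in heart, -3.24 ± 1.57 in brain and -0.13 ± 1.97 in kidney. Its brain interval of -6.31 to -0.17 lay on the same side of 0 as that of heart, with an adjusted p of 0.9999 in the brain table. Ubr3 had -4.46 ± 1.87 in heart, -0.39 ± 1.65 in brain, -0.20 ± 1.86 in kidney and -2.44 ± 2.07 in spleen. The heart SE was the smallest of the organs for Gigyf2, Ezh2 and Wwc2, and a smaller SE was found in brain for Acer3 and in brain and kidney for Ubr3. The differences of these 5 circles from the other organs, spleen left out for Gigyf2, did not pass the test given at the end.

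The most extreme values followed the mean. In 7 circRNAs the size of the log2 fold change lay 3.08 to 3.59 above the log2 of the mean, and the highest value among the rest was 2.35. Such values lie on curves set by the mean, 2 positive and 5 negative, as the plot of fold change against abundance shows. They include Ubr3, Ets1 and both of the negative unnamed circRNAs above, their means lay between 1.12 and 3.77, and 6 of the 7 are among the 19 at an unadjusted p below 0.05.

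How tightly the errors bound a genotype change depended on abundance. The SE of the log2 fold change had a median of 1.56 over the 664 circRNAs, so that the 95% interval reached 3.05 to each side, a factor of 8.30. In 4 groups of 166 circRNAs from the lowest to the highest mean, the median SE was 1.86, 1.73, 1.16 and 0.66. The whole interval lay within 4-fold in either direction for 0, 0, 17 and 115 circRNAs of these groups, 132 in all (19.9%). It lay within 2-fold for 20 (3.01%), all in the group with the highest means, and within 1.5-fold for 2. With the multiplier of a t distribution of 4 degrees of freedom 7 circRNAs were within 2-fold and 58 within 4-fold, and widening the SE by the square root of 2 gave the same 2 counts.

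The 2 within 1.5-fold were Ogdh and the unnamed chr10:120661013-120687997. The log2 fold change of Ogdh was -0.01 ± 0.23 (SE), with an interval of -0.45 to 0.43. For chr10:120661013-120687997 it was 0.03 ± 0.26, with an interval of -0.48 to 0.54. A change of more than 1.37-fold for Ogdh and 1.45-fold for the other thus lay outside the interval. With the t multiplier or the widened SEs given above, both intervals reached beyond 1.5-fold.

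Muscle genes were among the 20 bounded within 2-fold by the normal distribution. With the t multiplier or the widened SEs 7 were left, and the Myocd and Mlip leaders were not among them, while the Ryr2 leader was. The Ryr2 leader had -0.05 ± 0.30, with an interval of -0.63 to 0.53, the Myocd leader 0.32 ± 0.28, with -0.22 to 0.87, and the Mlip leader 0.23 ± 0.34, with -0.44 to 0.89. The others with a named host were Tlk1 at -0.08 ± 0.32, Phf21a, a histone reader, at 0.03 ± 0.33, Cpeb3, a translational regulator, at -0.09 ± 0.37, the shorter Atxn1 circle at -0.06 ± 0.41, 2 circles of Arhgap26 and 2 of Arhgap10. The least abundant of the 20 had a mean of 22.2. In contrast the interval of Gigyf2 reached 3.32-fold and that of Med13l 2.28-fold, so these abundant circles are not bounded within 2-fold.

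**Figure D4:**
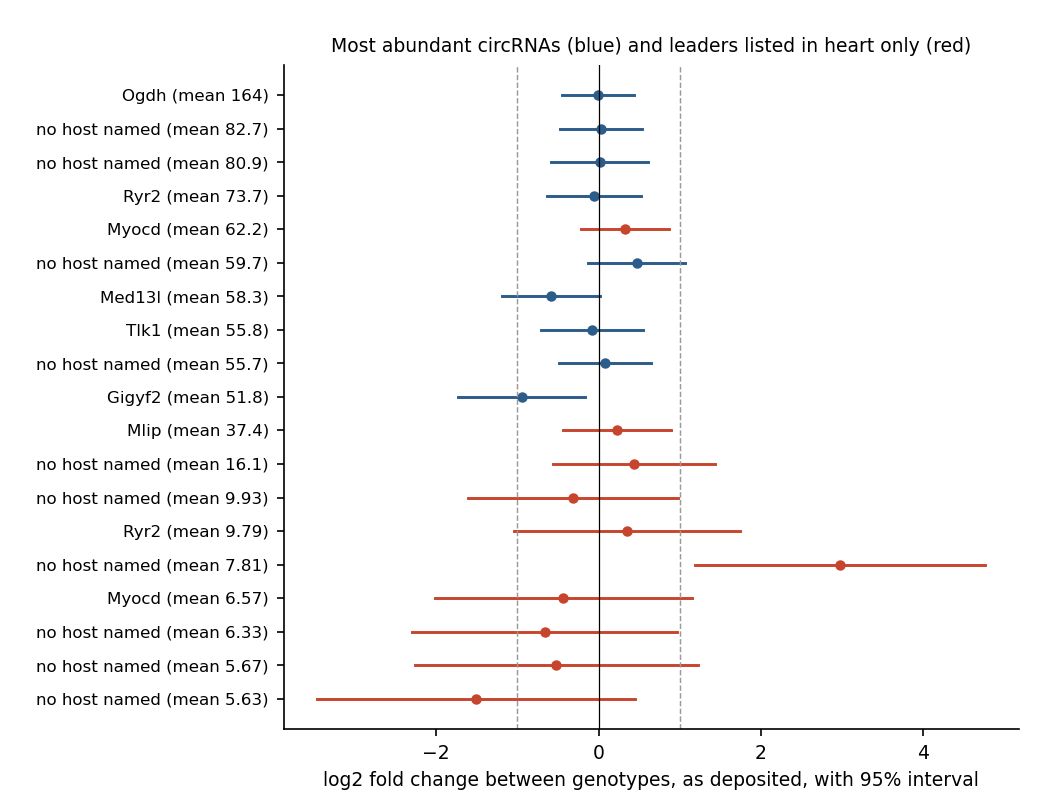
Log2 fold change between the genotypes, as deposited, with its 95% interval for the 10 most abundant heart circRNAs and the 10 most abundant listed in heart only (red), ordered by mean normalized count. Dashed lines mark 2-fold. The intervals of Ogdh, Tlk1 and the Ryr2, Myocd and Mlip leaders lie between them, and Gigyf2 lies to the left of 0. Those of the second Ryr2 circle (mean 9.79) and the second Myocd circle (mean 6.57) reach beyond the dashed lines.

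Some errors were wide for their abundance. Of the 213 circRNAs with a mean of 5 or more, 9 had an interval reaching 3 or more on the log2 scale to each side, singled out after the values were seen. Their SEs were 1.54 or more, against a median of 0.72 for the rest of the 213. They include a second Asph circle, chr4:9508627-9532065, with an SE of 1.79 at a mean of 6.43, Mark3, a polarity kinase, with 1.80 at 8.99, and Adgre1, the macrophage marker F4/80, with 1.62 at 6.82. The highest SE of the table was 3.21 for Rasa2, a Ras GTPase-activating protein, at a mean of 3.05. Which mouse or run carries these errors cannot be read from a mean.

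Circles listed in heart only had larger errors and lower means than widely listed ones. Their median SE was 1.76, close to the 1.73 of circRNAs listed in 1 other table, against 0.75 for those listed in all 4. Of the heart-only circRNAs 8 fell in the group of 166 with the highest means and 56 in the group with the lowest. The Myocd and Mlip leaders, at 0.28 and 0.34, had SEs like those of the most abundant shared circles.

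**Figure D5:**
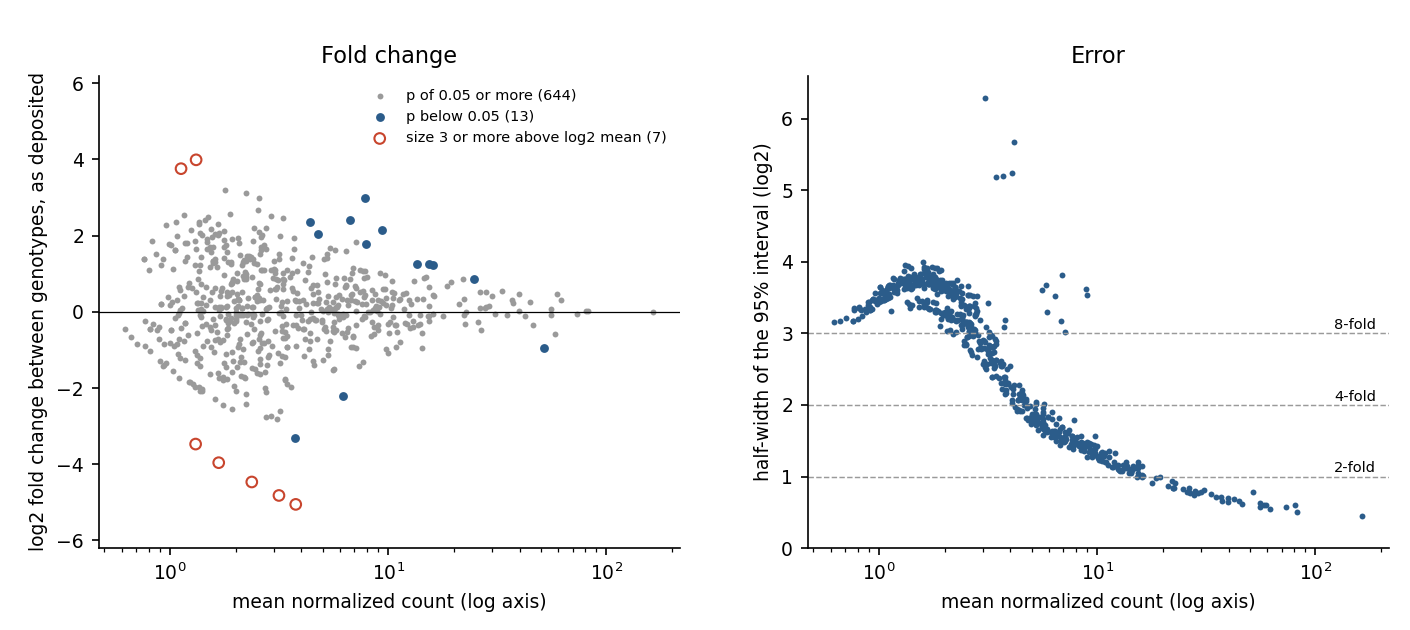
Left, log2 fold change between the genotypes against the mean normalized count (log axis), 1 point per circRNA, with red circles for the 7 whose size is 3 or more above the log2 mean and blue for the other 13 with an unadjusted p below 0.05. Right, half-width of the 95% interval against the same axis, with 2-, 4- and 8-fold as dashed lines; it falls with abundance, and the 9 wide ones at a mean of 5 or more stand above the band.

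The errors of heart were smaller than those of the other organ tables. Among circRNAs with a mean of 10 or more in their own table, the median SE was 0.53 in heart, 0.97 in kidney, 1.30 in liver, 1.46 in brain and 1.5 in spleen. An interval within 4-fold was found for 132 circRNAs in heart, 63 in liver, 46 in kidney, and 0 in brain and spleen. These are descriptions of separately normalized tables, without a test between them.

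No list of host genes held a called circRNA, which was settled beforehand because 0 of all 664 were called. By the deposited Wald test, an unadjusted p below 0.05 was held by 2.86% of all 664, 1.81% positive and 1.05% negative. The counts in each list below stand beside those shares. They cover named circRNAs only, so a listed gene that gave none may still host an unnamed heart circRNA. Among 14 named circRNAs of the calcium handling and excitation list, from 5 of its 43 genes, 0 were called and 0 had an unadjusted p below 0.05 in either sign. Their median log2 fold change was 0.14, beside 0.12 over all circRNAs, and 5 of the 14 were bounded within 4-fold. Beyond Ryr2 they came from Asph, whose locus also makes junctin, at 0.54 ± 0.39 (SE) and a mean of 33.4, Slc8a1, the sodium-calcium exchanger, at -0.29 ± 0.61 and 11.9, Pde4dip, myomegalin, at 0.34 ± 0.83 and 6.11, and Cacna1c, the L-type calcium channel, at -0.07 ± 1.17 and 3.79.

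The sarcomere and Z-disc list held 10 circRNAs of 2 of its 56 genes, Mlip and Pdlim5, a PDZ-LIM protein of the Z-disc. Mlip, described above by its lamin binding, gave 7 of the 10, so the list is mostly 1 gene. Of the 10, 1 positive and 0 negative had an unadjusted p below 0.05, the Mlip circle given above, 0 were called, and the median was 0.14. Over all 664, 1.81% were positive and 1.05% negative at that level, and whether the list differs was not tested. The most abundant Pdlim5 circle had -0.09 ± 1.29 at a mean of 4.00. Known splicing targets of RBM20, a cardiac splicing factor, numbered 17 circRNAs of 4 genes, Mlip, Ryr2, Pdlim5 and Cacna1c, and 11 of the 17 were listed in heart only, beside 125 of all 664 (18.8%) and 56 of the 323 named. Of these 11, 5 are the Mlip and 4 the Ryr2 circles counted above. The list shares its members with the 2 lists before it. Its median was 0.09, again with 1 positive and 0 negative at an unadjusted p below 0.05 and 0 called.

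The mitochondria and energy metabolism list held 6 circRNAs of 4 genes with a median of 0.22, of which 0 were called and 0 had an unadjusted p below 0.05. They were Ogdh, Oxct1, the ketone body enzyme, at 0.14 ± 0.59 (SE) and a mean of 15.4, 3 circles of Cd36, a fatty acid transporter, and Esrrg, a nuclear receptor, at 1.62 ± 1.77 and 1.05. The 3 Cd36 circles had log2 fold changes of 1.41 ± 1.04, 0.31 ± 1.38 and -2.77 ± 1.74. From the intercalated disc, costamere and adhesion list, the leading circle of Utrn, the dystrophin relative utrophin, had 0.53 ± 0.41 at a mean of 28.0.

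Cardiac transcription factors gave 5 circRNAs, 3 of Myocd and 2 of Nfib, with a median of 0.73 and 0 called or at an unadjusted p below 0.05. Of a list headed circRNA hosts known from the literature 7 of 28 genes gave 12 named circRNAs with a median of -0.19. Unnamed circRNAs, some of them abundant, could not be assigned to this list. Ogdh, Gigyf2 and Asph, abundant named hosts in these data, are in that list, which was chosen with earlier results of these data known. Its counts are therefore descriptions only. Gigyf2 was the 1 with an unadjusted p below 0.05, it was negative, and 0 were called. A list of RNA-binding proteins linked to back-splicing gave 1 circRNA, of Ptbp3, a splicing regulator, at -1.28 ± 1.91 and a mean of 1.94, and a list of tRNA modification genes gave 0.

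The marker lists of cell types were checked against the named hosts, although a circRNA does not measure its gene's linear RNA. Only 323 of 664 heart circRNAs had a named host, so a marker without one may still host an unnamed circRNA. Of 10 cardiomyocyte markers Ryr2 was the only named host, with 6 circRNAs and a summed mean of 93.0. Of the 7 leukocyte markers Adgre1 was a host, with 2 circRNAs and a summed mean of 9.42, and the lists for fibroblasts, endothelium, mural cells, erythroid cells, adipocytes, skeletal muscle, epicardium, Schwann or neuronal cells, hepatocytes and kidney tubules gave 0. The 2 Adgre1 circRNAs had log2 fold changes of 0.47 ± 1.62 and 1.09 ± 1.41 (SE).

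The log2 fold changes of heart were also compared with those of each other organ for the same circRNA, over 1334 pairs. In 0 of 1334 pairs (0%) did the difference pass an adjusted p of 0.05, by a two-sided normal test with Benjamini-Hochberg adjustment, and 28 (2.1%) had an unadjusted p below 0.05. Shared circRNAs without a deposited p in the other table were left out. The organs come from the same mice, which the test does not take into account. The smallest adjusted p, 0.325, belonged to the Utrn leader, with 0.53 ± 0.41 in heart and -6.46 ± 1.86 in liver. The 28 were 18 of 339 pairs with liver (5.31%), 5 of 413 with brain (1.21%), 2 of 389 with kidney (0.514%) and 3 of 193 with spleen (1.55%), so that the share in liver was near the 5% of the threshold. The median SE of a difference was 2.09, and the interval of the difference lay within 4-fold for 24 pairs and within 2-fold for 0.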

How the data were processed

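RNase R-treated, rRNA-depleted RNA of whole organs was sequenced, per the labels' protocols. GRCm39, DESeq2 and BWA 0.7.17-r1188 come from the submitters' processing notes, which give no roles. The model formula, the circRNA caller, the counting, the low-expression limit and the treatment of the repeat runs are not stated in the sources used here. The authors deposited, per the file headers, a mean normalized count signal per circRNA, a log2 fold change with its SE, a test score, and p-values with adjusted p-values from DESeq2. In heart the score equalled fold change over SE, and the adjusted p was Benjamini-Hochberg over all 664 circRNAs, when recomputed.

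Computed here (Python 3.11.15, SciPy 1.17.1, pandas 2.3.3): 95% intervals from the SE by the normal distribution, spans, loci, matches between tables by both ends, and differences between organs. Deposited p-values, also from the normal distribution, and SEs measure spread between these libraries. If repeat runs entered the fit as separate samples, both are too small. Depth per sample is unknown. The code for calls, intervals and host names was run on simulated data. Simulated fold changes were drawn with the deposited SEs, so this cannot show whether those SEs are right.

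Hosts were sought within 100 kb in GENCODE M21. A first plan to place circRNAs inside genes of the same build could not be run, since the annotation is of GRCm38. Distance alone names nothing: 655 of 664 heart spans equalled some exon distance of the chromosome, as did 608 to 626 spans altered by 1 to 3 bases. Of 325 heart circRNAs with a single best gene, 1 broke the order of genes along the chromosome and 1 lay over 1 Mb off its neighbours' placement; both were left unnamed, which left 323. Another 4 fitted several genes equally well. The second check was added after the values were seen.

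The text names circRNAs by extremes of p in each sign, mean, interval and span, the heart-only leaders, loci of 4 or more and the leading hosts of gene lists, and at most 2 per category without a host. Members and lists were chosen with earlier results of these data known. Some results are not reported here.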

Additional observations from a re-analysis of the deposited data

How the results depend on the processing

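Of 28 alternatives, those on the number of circRNAs called between the genotypes gave 0 each time: a mean of at least 5 (smallest adjusted p 0.229) or 10 (0.744) with p adjusted anew, a t distribution with 4 degrees of freedom (0.998), SEs times the square root of 2 (0.999), leaving out the 7 circRNAs whose fold change follows the mean (0.707), and an adjusted p below 0.1. The number at an unadjusted p below 0.05, 19, became 10 at a mean of at least 5, 5 at a mean of at least 10, where fewer circRNAs are tested, 3 with the t distribution, 3 with the wider SEs and 13 without the 7. The 20 bounded within 2-fold became 7 with the t multiplier, 7 with the wider SEs, 2 at 1.5-fold and 132 at 4-fold. The 125 listed in heart only became 124 with ends within 5 bases, 94 when sharing an end counted as listed, 87 when any overlap did, and 15 at a mean of at least 5, where fewer circRNAs are counted. Heart against other organs stayed at 0 called with a mean of at least 5 in both tables (smallest adjusted p 0.119), with a t distribution of 8 degrees of freedom (0.999) and at an adjusted p below 0.1. The median span, the number of loci, the share of the 10 most abundant and the median fold change moved by less than 1.5 times. No paired analysis was possible because the tables hold no value per library, and for the same reason no mouse could be left out. A host by any overlap with a gene was not run, since it needs positions on one build. Depth is unknown, and an SE of 1.56 for the median circRNA limits what a genotype change could show.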
